A study of Mus musculus with 12 samples.

Results

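The genes described are those carried by the mitochondrial genome itself: every row of the deposited count table whose gene name starts with mt-. There were 37 such genes among the 46078 in the table, of which 13 are protein-coding, 2 are ribosomal RNA genes and 22 are transfer RNA genes. All 37 identifiers matched a gene model on chromosome M of GRCm38 (GENCODE M21 annotation), and they were the only genes annotated there. The epidermis of newborn mouse skin had been sequenced as RNA in 12 libraries, 3 mice in each of 4 genotype groups. Every mouse carried K14-Cre, a transgene in which the keratin 14 promoter drives Cre recombinase in basal keratinocytes, so genes in other cells of the sample are not its target. The control group carried K14-Cre alone. The Llgl cKO group added flox/flox alleles of Llgl1 and Llgl2, the mammalian lethal giant larvae genes, which act in cell polarity. The Trp53 het group carried K14-Cre with 1 floxed and 1 wild-type allele of Trp53, the gene of the tumour suppressor p53, and the Llgl cKO Trp53 het group, or double mutant, combined both changes. The study asked how loss of Llgl1 and Llgl2 changes epidermal gene expression with and without loss of a Trp53 allele.

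Mitochondrial DNA is transcribed from both strands as long precursor RNAs. In most places a transfer RNA separates neighbouring genes, and cutting out the transfer RNAs releases the messenger and ribosomal RNAs. The protein-coding genes specify subunits of respiratory complexes I, III and IV and of ATP synthase, while the ribosomal and transfer RNAs serve the mitochondrion's own ribosomes. Most mitochondrial messenger RNAs receive a short poly(A) tail after cutting, which in some of them also completes the stop codon. In the annotation 3 of the 13 coding genes, mt-Co3, mt-Nd4 and mt-Cytb, ended in an incomplete stop codon. The libraries were made with an mRNA kit, so the counts of mature transfer and ribosomal RNA are not a measure of their abundance in the cell.

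The targeted genes and the libraries were checked first. Llgl2 was at 65.4 to 110 CPM (counts scaled to a common library total after TMM normalization) in the 6 libraries with intact Llgl alleles and at 6.12 to 12.4 CPM in the 6 libraries with floxed Llgl alleles. Llgl1 was higher in those libraries, at 187 to 280 CPM against 115 to 173 CPM. The counts cover the whole gene and the floxed exons are not given in the sources used here, so Llgl1 does not check its label. Trp53 was at 61.8, 60.9 and 115 CPM in the 3 Trp53 het libraries against 109 to 130 CPM in the controls, so the library labelled Trp53 het 3 stood in the control range. It was at 98.3, 67.8 and 65.9 CPM in the double mutant, whose first library lay above the other 2 and below the lowest control. Library totals ran from 6738720 counts in control 1 to 14509507. The summed level of 10 keratinocyte marker symbols, which name 17 gene rows of the table, was 68343 to 126005 CPM. Skeletal muscle markers, another mitochondria-rich source, summed to at most 11.8 CPM, with Ckm at no more than 0.255 CPM. Markers of hair shaft and inner root sheath summed to 1503 to 6933 CPM in controls, 1035 to 3349 in Llgl cKO, 2203 to 5551 in Trp53 het and 126 to 445 in double-mutant libraries.

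The sequences of 3 transfer RNA genes are shown first because these were the mitochondrial genes whose counts passed the test in any comparison. They are mt-Tl1 (leucine, at chrM:2676-2750), mt-Tt (threonine, at chrM:15289-15355) and mt-Tw (tryptophan, at chrM:4950-5016), all on the plus strand of GRCm38. The sequences are from the GENCODE M21 transcripts, printed 5′ to 3′ as DNA, with the anticodon in capitals.
mt-Tl1: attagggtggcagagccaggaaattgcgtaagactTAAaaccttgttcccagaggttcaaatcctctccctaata
mt-Tt: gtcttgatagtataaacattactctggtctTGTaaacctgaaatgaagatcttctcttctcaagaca
mt-Tw: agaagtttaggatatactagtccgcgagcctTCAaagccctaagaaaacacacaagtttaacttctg
The anticodon was located as the letters for the named amino acid inside a loop whose flanking stem paired at 4 of 5 positions in mt-Tl1 and mt-Tt and at 3 of 5 in mt-Tw. Neighbours leave no gap: mt-Tl1 ends where mt-Nd1 begins and starts where mt-Rnr2 ends, and mt-Tt starts directly after mt-Cytb. A read that crosses such a border belongs to an uncut precursor. Where the counting assigned it to the transfer RNA gene, the gene counts do not separate it from a read of the released transfer RNA. Whether the counting did so was not examined.

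A second set of sequences bears on which members could be counted at all. Over the 12 libraries mt-Co2 had 6 counts, mt-Atp8 had 1, mt-Atp6 had 3, mt-Co3 had 4 and mt-Nd4l had 0. These encode a subunit of complex IV, both ATP synthase subunits, another complex IV subunit and a complex I subunit. They lie next to each other in the genome, with mt-Nd3 at 114 counts among them, while mt-Co1 on one side had 739681 counts and mt-Nd4 on the other had 129482. In the annotation 6 nuclear genes on the minus strand of chromosome 1, between 24611535 and 24616197, matched chromosome M between 6381 and 11042. Over 3855 bases compared there were 7 mismatches, an identity of 99.8%. Gm28661, Gm10925, Gm28437 and Gm28439, which match mt-Co2, mt-Atp6, mt-Co3 and mt-Nd4, had 0 mismatches.

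Stretches of 60 bases from 3 of these pairs are printed to show how close the copies are. Each stretch starts at the first base of the match, and capitals mark the bases that differ.
mt-Co2: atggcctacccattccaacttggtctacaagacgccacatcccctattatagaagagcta
Gm28661: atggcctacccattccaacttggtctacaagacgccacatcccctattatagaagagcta
mt-Nd3: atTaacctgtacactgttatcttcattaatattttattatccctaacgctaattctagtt
Gm28438: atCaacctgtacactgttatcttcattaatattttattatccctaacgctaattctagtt
mt-Co1: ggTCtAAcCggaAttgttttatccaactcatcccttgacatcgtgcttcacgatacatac
Gm29216: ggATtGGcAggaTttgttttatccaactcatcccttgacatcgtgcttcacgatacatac
The mitochondrial stretches are at chrM:7013-7072, chrM:9459-9518 and chrM:6381-6440, and the nuclear ones at chr1:24615506-24615565, chr1:24613060-24613119 and chr1:24616138-24616197, read on the minus strand. The mt-Co2 pair is identical. Counting from 1 at the 5′ end of the stretch, with the mitochondrial base first, the mt-Nd3 pair differs by T3C, which is the single mismatch in the 345 bases compared. The mt-Co1 pair differs by T3A, C4T, A6G, A7G, C9A and A13T, and these are all 6 mismatches of its 492 bases.

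Exact sharing followed the same border. Of all windows of 100 bases, 99.5% in mt-Co2, 99.5% in mt-Atp6, 99.9% in mt-Co3, 98.5% in mt-Nd4l and 97.6% in mt-Nd3 were also present in another annotated transcript, for mt-Nd4l mostly Gm10222. The share was 60.8% in mt-Nd4, 30.8% in mt-Co1 and 3.19% in mt-Nd2, and 0% in mt-Atp8, mt-Nd1, mt-Nd5, mt-Nd6, mt-Cytb and both ribosomal RNAs. With windows of 50 bases it was 62.2% in mt-Nd4, 51.1% in mt-Co1, 8.19% in mt-Nd2, 7.61% in mt-Nd5 and 1.04% in mt-Rnr2. So the low counts and the shared windows coincided except at mt-Atp8, which had 1 count and no shared window. Apart from its 3′ end, which lies in Gm10925, mt-Atp8 falls in a gap between annotated copies whose flanks continue in register, and sequence outside annotated transcripts was not searched. The 6 nuclear copies themselves together had 0.491 to 1.53 CPM per library. How reads with several matches were counted is not given in the sources used here, and its part in the low counts was not tested. The counts of mt-Co2, mt-Atp6, mt-Atp8, mt-Co3, mt-Nd3 and mt-Nd4l are therefore uncertain as a measure of those RNAs. mt-Co1 and mt-Nd4 may be counted over part of their length. To a lesser extent this may hold for mt-Nd2, mt-Nd5 and mt-Rnr2.

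**Figure D1:**
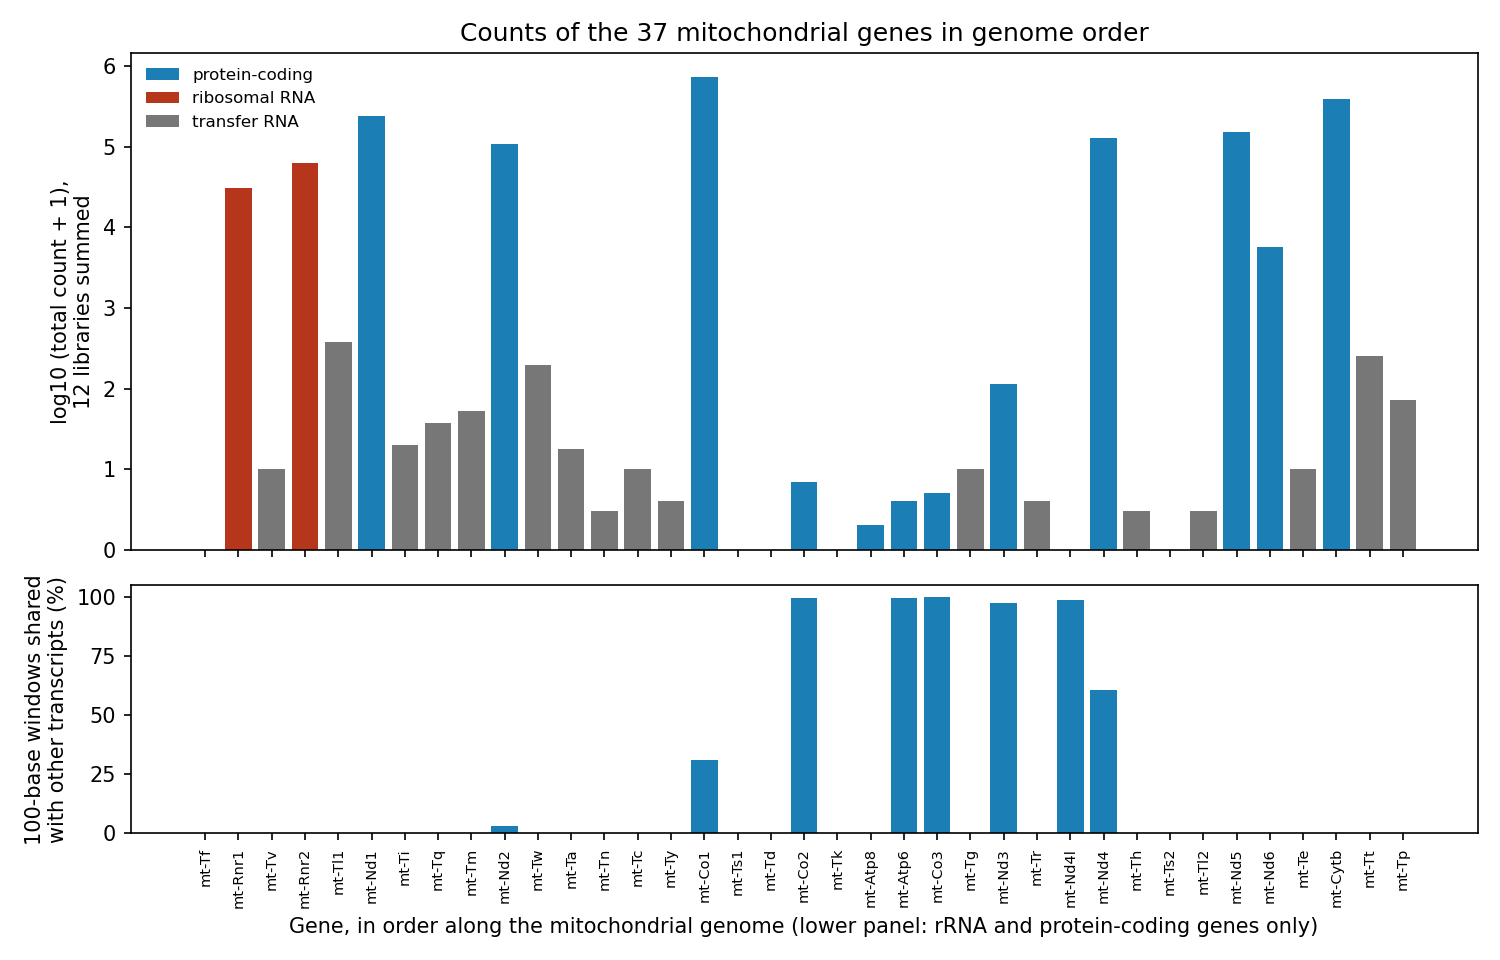
Total counts over the 12 libraries (log axis, genes with 0 counts at the base) for the 37 mitochondrial genes in genome order. Below is the percentage of 100-base windows that each ribosomal RNA and protein-coding gene shares with another annotated transcript. Transfer RNA genes are not drawn in the lower panel. The run from mt-Co2 to mt-Nd4l has between 0 and 114 counts a gene, while mt-Co1 and mt-Nd4 beside it have 739681 and 129482.

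Of the 37 genes, 13 passed the filter on low counts and were tested: mt-Nd1, mt-Nd2, mt-Nd3, mt-Nd4, mt-Nd5, mt-Nd6, mt-Cytb, mt-Co1, both ribosomal RNAs and mt-Tl1, mt-Tw and mt-Tt. The filter asked for about 0.850 CPM in at least 3 libraries. mt-Tw reached it in 0 control, 3 Llgl cKO, 1 Trp53 het and 3 double-mutant libraries, and mt-Tt in 1, 3, 1 and 3. These 2 genes thus passed mainly through the groups where they were high. mt-Tl1 reached it in 2, 3, 3 and 3 libraries. mt-Nd3 reached it in 1, 1, 0 and 2, so it too passed mostly through libraries with Llgl loss. The other 19 transfer RNA genes had 243 counts in all 12 libraries together. Members with 0 counts everywhere were mt-Tf, mt-Ts1, mt-Td, mt-Tk, mt-Ts2 and mt-Nd4l, for which 3 counts in 136689531 allow a level of up to 0.0219 CPM of unscaled library totals, a limit that covers counting error only.

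Together the 37 genes took 1.18 ± 0.309% of all counts in controls, 1.32 ± 0.0694% in Llgl cKO, 1.33 ± 0.145% in Trp53 het, while the double mutant had 1.53 ± 0.275% (SD, n = 3 each). The lowest library was control 1 at 0.833% and the highest Llgl cKO Trp53 het 3 at 1.82%, and the groups overlapped. In bulk tissue fewer cells of a type and less RNA per cell cannot be told apart, and this holds for every level given here. Within the mitochondrial counts mt-Co1 took 36.2 to 42.8% in a library, mt-Cytb 19.8 to 23.1% and mt-Nd1 8.19 to 14.4%. mt-Nd4 and mt-Nd5 stood at 6.54 to 7.93% and 6.62 to 9.44%.

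Per kilobase of gene model, the mean levels over the 12 libraries were ordered mt-Co1 (3439 CPM per kilobase), mt-Cytb (2444), mt-Nd1 (1795), mt-Nd2 (741), mt-Nd4 (680), mt-Nd5 (597), mt-Rnr2 (295), mt-Rnr1 (249) and mt-Nd6 (74.97). Every neighbouring pair in this order had overlapping ranges over the libraries, the last of them least: mt-Nd6 ran from 26.6 to 154 and mt-Rnr1 from 124 to 464. The genes share the same libraries, and their order within each library was not compared, so overlapping ranges do not show that the order varied. mt-Co1 and mt-Nd4 are the entries here with the largest shares of windows found in other transcripts, so their counting may be incomplete. For mt-Nd2, mt-Nd5 and mt-Rnr2 the shares were smaller. The remaining coding gene tested, mt-Nd3, was at 0 to 1.76 CPM.

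Of the 8 protein-coding genes tested, of complexes I, III and IV, all but mt-Nd6 had their highest group mean in Llgl cKO Trp53 het epidermis, but none of the 8 passed the threshold in any comparison with edgeR's quasi-likelihood test at a Benjamini-Hochberg adjusted p below 0.05. mt-Co1, the catalytic subunit of complex IV, was at 3585, 5045 and 5309 CPM in controls, 5939, 4870 and 5293 in Llgl cKO, 5360.7, 5363 and 5308 in Trp53 het and 4980, 6198 and 6507 in the double mutant. Control 1 was the low library, and the other 11 lay between 4870 and 6507 CPM. Its log2 fold change in Llgl cKO Trp53 het against control was 0.34 (SE 0.18, adjusted p = 0.422). mt-Cytb, cytochrome b of complex III, was at 2119, 2564 and 2869 CPM in controls, 2755, 2435 and 2850 in Llgl cKO, 2683, 2595 and 2924 in Trp53 het and 2639, 3554 and 3563 in the double mutant. Double-mutant libraries 2 and 3 exceeded all others, the first did not, and the log2 fold change against control was 0.37 (SE 0.16, adjusted p = 0.344).

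Of the complex I genes, mt-Nd4 came nearest to separating the groups. Its levels were 713, 920 and 891 CPM in controls, 909, 808 and 907 in Llgl cKO, 912, 951 and 920 in Trp53 het and 955, 1110 and 1240 in the double mutant. All 3 double-mutant libraries were above the other 9, though the lowest only narrowly, and the log2 fold change against control was 0.39 (SE 0.14, 95% interval 0.07 to 0.71, adjusted p = 0.239). The share of all genes whose groups separate was not counted, so separations of libraries, here and below, are descriptions only. mt-Nd1 was at 752, 1606 and 1878 CPM in controls and at 1530, 2161 and 2555 in Llgl cKO Trp53 het (log2 fold change 0.56, SE 0.30, adjusted p = 0.453). mt-Nd2 was at 334, 788 and 851 against 610, 931 and 1332 CPM (0.54, SE 0.37, adjusted p = 0.556). mt-Nd5 was at 607, 1004 and 1133 against 939, 1391 and 1698 CPM (0.55, SE 0.26, adjusted p = 0.374). In each of these 3 genes control 1 was the lowest of the 12 libraries and Llgl cKO Trp53 het 3 the highest, and the groups overlapped. mt-Nd3, with its few counts, gave a log2 fold change of 0.71 (SE 0.76, adjusted p = 0.735).

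mt-Nd6, a complex I subunit, is the one coding gene on the minus strand, and its levels did not follow those of the others. It was at 19.0, 40.3 and 19.2 CPM in controls, 80.1, 44.6 and 40.78 in Llgl cKO, 37.9, 13.8 and 19.8 in Trp53 het and 33.1, 53.4 and 64.9 in the double mutant. All 3 Llgl cKO libraries lay above the controls, narrowly in the lowest case, while the double mutant overlapped them. The log2 fold change was 0.94 (SE 0.43, adjusted p = 0.367) in Llgl cKO Trp53 het against control and 1.07 (SE 0.31, 95% interval 0.36 to 1.78, adjusted p = 0.0899) over both Llgl contrasts, so it was not called. The region is also transcribed on the opposite strand, and since the strand setting of the counting is not given in the sources used here, reads of the 2 strands cannot be told apart.

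**Figure D2:**
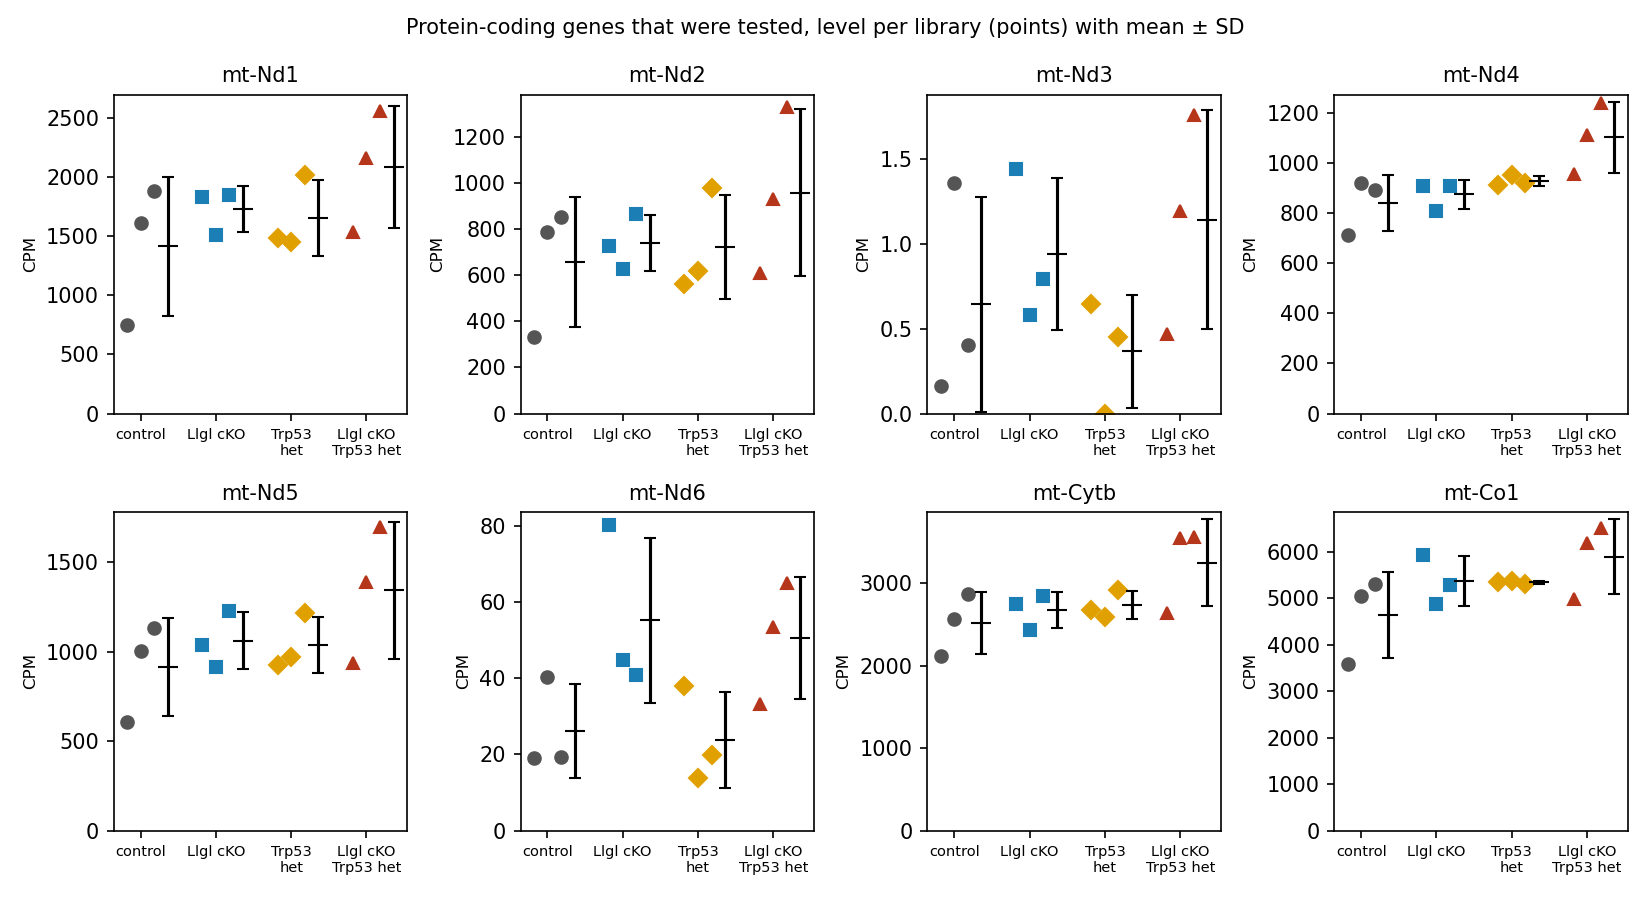
Levels in CPM of the 8 protein-coding mitochondrial genes that were tested, 1 panel a gene, with a point for each library by genotype and the mean ± SD of the 3 libraries of a group beside them. In mt-Nd4 the 3 Llgl cKO Trp53 het libraries, from 955 CPM, lie above the other 9, of which the highest is at 951 CPM, and in mt-Nd6 the 3 Llgl cKO libraries, from 40.78 CPM, lie just above the controls. The share of all genes that separate in such ways was not counted, and neither gene was called by edgeR.

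The ribosomal RNA genes went the other way in part. mt-Rnr1, the small-subunit ribosomal RNA, was at 414, 208 and 231 CPM in controls, 160, 119 and 150 in Llgl cKO, 443, 322 and 220 in Trp53 het and 120, 219 and 250 in the double mutant. All Llgl cKO libraries were below all controls, whereas Llgl cKO Trp53 het overlapped them. The log2 fold change was -0.99 (SE 0.34, adjusted p = 0.612) in Llgl cKO against control, -0.53 (SE 0.34, adjusted p = 0.530) in Llgl cKO Trp53 het against control, and -0.86 (SE 0.24, 95% interval -1.41 to -0.31, adjusted p = 0.0776) over both Llgl contrasts. None of these passed the threshold. mt-Rnr2, the large-subunit ribosomal RNA, was at 635, 370 and 377 CPM in controls, 443, 262 and 321 in Llgl cKO, 767, 497 and 426 in Trp53 het and 225, 526 and 757 in the double mutant. The double-mutant libraries spread more widely than the other groups, and the log2 fold change against control was 0.13 (SE 0.40, 95% interval -0.80 to 1.05, adjusted p = 0.929). Its sign depended on single libraries: it was -0.0076 without control 2 and -0.29 without Llgl cKO Trp53 het 3.

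The 3 libraries highest in mt-Rnr1 were also the highest in a set of small nuclear-encoded RNAs that lack a poly(A) tail. The summed level of these 5 RNAs (Rmrp, Rpph1, Rn7sk, Rny1 and Rny3) was 175 CPM in control 1, 97.9 in Trp53 het 1 and 58.6 in Trp53 het 2, against 2.20 to 12.8 CPM in the other 9. Those 3 libraries had the highest mt-Rnr1 levels, at 414, 443 and 322 CPM, and all belong to groups without Llgl loss. The 5 RNAs were set apart after a wider list of 23 nuclear RNAs without a poly(A) tail had been summed. On that list control 1 (386 CPM) and Trp53 het 1 (259 CPM) were again the highest, but double mutant 2 (154 CPM) and Llgl cKO 1 (142 CPM) stood above Trp53 het 2 (140.3 CPM), so the order did not follow Llgl loss there. Lars2, the nuclear gene of the mitochondrial leucyl-tRNA synthetase, had its 3 highest levels in the same libraries, at 10486, 4692 and 1677 CPM against 246 to 880 in the rest. With these 3 libraries left out, the log2 fold change of mt-Rnr1 over both Llgl contrasts was -0.38 (adjusted p = 0.450), and without the 3 highest on the wider list it was -0.57 (adjusted p = 0.3225). Any part of poly(A) selection or RNA quality in the ribosomal RNA levels was not tested further.

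**Figure D3:**
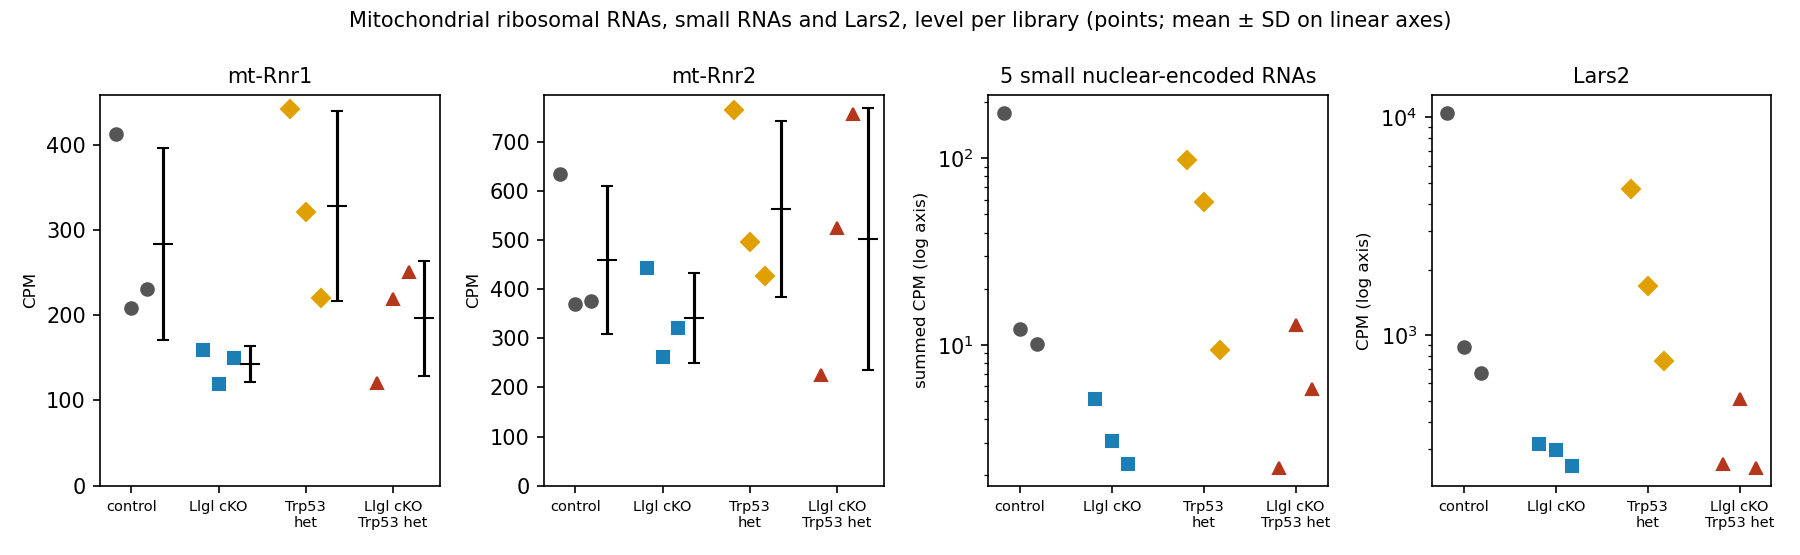
Levels in CPM, per library, of the mitochondrial ribosomal RNAs and of the summed 5 small nuclear-encoded RNAs without a poly(A) tail. Control 1, Trp53 het 1 and Trp53 het 2 are the 3 highest libraries both for mt-Rnr1 (414, 443 and 322 CPM) and for the small RNAs (175, 97.9 and 58.6 CPM).

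The transfer RNA genes held all the calls among the mitochondrial genes. The level of mt-Tl1 was 0.654, 1.45 and 0.806 CPM in controls, 2.34, 2.19 and 2.99 in Llgl cKO, 1.48, 2.03 and 1.36 in Trp53 het and 4.16, 4.44 and 7.62 in the double mutant. Each of the 6 libraries with Llgl loss lay above each of the 6 without. mt-Tt was at 0.164, 0.850 and 0.484 CPM in controls, 2.27, 1.82 and 2.20 in Llgl cKO, 0.831, 1.02 and 0.527 in Trp53 het and 1.81, 3.50 and 5.69 in the double mutant, with the same separation. mt-Tw was at 0.654, 0.765 and 0.403 CPM in controls, 1.31, 0.875 and 1.497 in Llgl cKO, 0.554, 1.02 and 0.376 in Trp53 het and 1.18, 2.99 and 4.94 in the double mutant. Here 1 Trp53 het library exceeded 1 Llgl cKO library. These are small numbers of reads: mt-Tl1 had 4, 17 and 10 counts in the 3 controls, and the lowest mt-Tt value, in control 1, was 1 count. The share of all genes whose groups separate was not counted, so separations of libraries are given as descriptions only. For mt-Tt and mt-Tw the filter was passed mainly through the groups with Llgl loss.

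**Figure D4:**
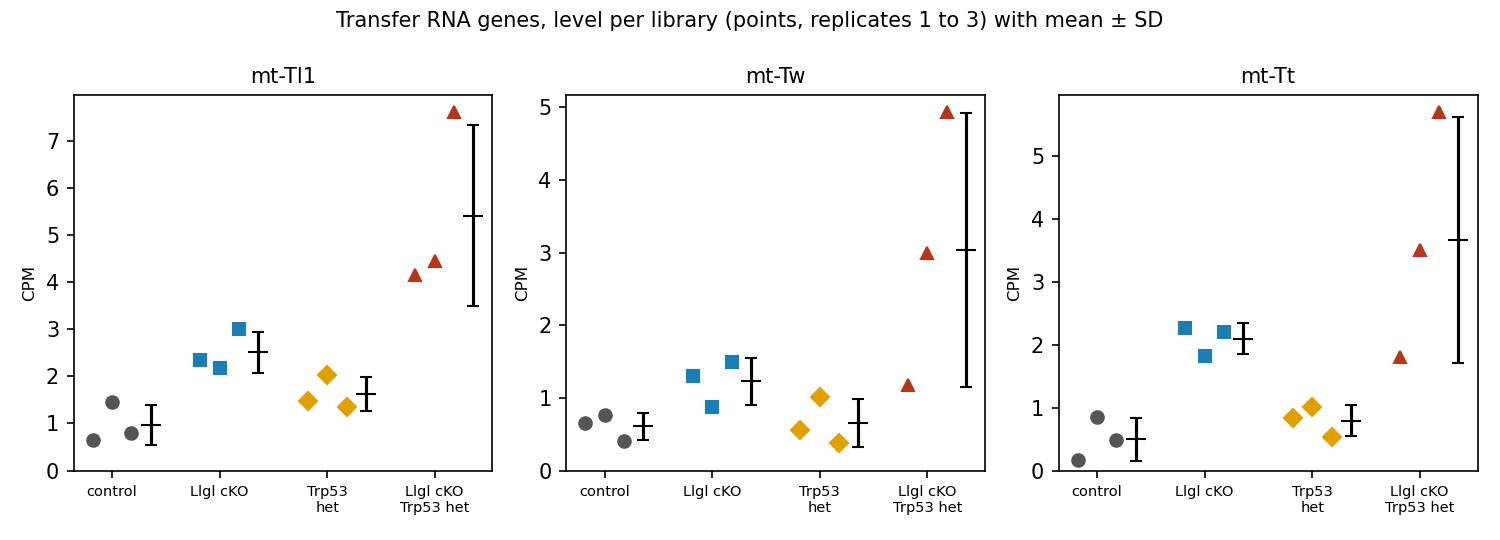
Levels in CPM of the 3 transfer RNA genes tested, with a point per library (replicates 1 to 3 of each genotype) and the mean ± SD of each group (n = 3). For mt-Tl1 and mt-Tt the 6 libraries with Llgl loss lie above the 6 without, and Llgl cKO Trp53 het 3 is the highest library in all 3 panels.

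In Llgl cKO Trp53 het against control, 2 of the 13 mitochondrial genes tested rose and none fell, where 1.25% of all 14582 genes were called in either direction, 0.343% higher and 0.905% lower. mt-Tl1 rose with a log2 fold change of 2.42 (SE 0.36, 95% interval 1.58 to 3.26, adjusted p = 0.0146). mt-Tt rose with a log2 fold change of 2.74 (SE 0.52, 95% interval 1.54 to 3.93, adjusted p = 0.0349). mt-Tw was not called, at 2.32 (SE 0.55, adjusted p = 0.0704). These calls rest on few libraries. No member was called without control 1 (adjusted p = 0.0734 for mt-Tl1 and 0.112 for mt-Tt) or without Llgl cKO Trp53 het 3 (0.0641 and 0.154). mt-Tt also lost its call, with mt-Tl1 keeping it, without control 2, control 3, Trp53 het 2 or double mutant 2 (adjusted p = 0.111, 0.0549, 0.0605 and 0.117), while mt-Tw gained a call without Llgl cKO Trp53 het 1 (0.0301). Fitted on these 2 groups alone, neither gene passed (adjusted p = 0.0767 and 0.12). The median log2 fold change was 0.55 over the 8 coding genes and -0.20 over the 2 ribosomal RNAs, against -0.0059 over all genes tested. The coding median includes mt-Nd3, which passed the filter mostly through libraries with Llgl loss, and a median without it was not computed. No median is given for the transfer RNAs, and their count of calls is not read against the background, because mt-Tt and mt-Tw entered the test mainly through the groups with Llgl loss.

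Against Trp53 het, Llgl cKO Trp53 het epidermis differed in 1 of the 13 genes, where 1.36% of all genes were called, 0.439% higher and 0.919% lower. mt-Tl1 rose with a log2 fold change of 1.75 (SE 0.35, 95% interval 0.95 to 2.56, adjusted p = 0.0406). mt-Tt, at 2.24 (SE 0.50, adjusted p = 0.0535), and mt-Tw, at 2.29 (SE 0.55, adjusted p = 0.0684), had the larger fold changes and did not pass. The mt-Tl1 call was lost on leaving out any 1 of 9 of the 12 libraries, with adjusted p between 0.0508 and 0.160. It was kept without control 3, Llgl cKO 2 or Llgl cKO Trp53 het 1. mt-Tt was called without control 3 (adjusted p = 0.0488) and without Llgl cKO Trp53 het 1 (0.0334). The comparison shares its Llgl cKO Trp53 het libraries with the one before, so the results are not independent.

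Without the Trp53 change, Llgl cKO against control gave no call among the 13 genes, where 0.226% of all genes were called, 0.0892% higher and 0.137% lower. edgeR gave 4 of the 13 an unadjusted p below 0.05, against 920 of all 14582 genes, and DESeq2 called 0. Among the 4 was mt-Tt, which entered the test mainly through the groups with Llgl loss, so this count is not read against the background. mt-Tt had a log2 fold change of 1.93 (SE 0.52, adjusted p = 0.378) and mt-Tl1 of 1.31 (SE 0.37, adjusted p = 0.418). The 95% intervals, from 0.73 to 3.14 and from 0.46 to 2.17, overlap those of the double mutant. The test over all genes called neither mt-Tt nor mt-Tl1. Both genes were higher in 3 of 3 Llgl cKO libraries than in any control, which is a description only. The share of all genes that separate in this way was not counted, and mt-Tt entered the test mainly through the groups with Llgl loss.

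Averaged over both Trp53 backgrounds, 6 libraries with Llgl loss against 6 without, mt-Tl1, mt-Tt and mt-Tw rose and no other member was called. Over all genes 3.33% were called, 1.18% higher and 2.15% lower, and the count of transfer RNA genes is again not read against this. The log2 fold changes were 1.53 for mt-Tl1 (SE 0.25, adjusted p = 0.0114), 2.09 for mt-Tt (SE 0.36, adjusted p = 0.0142) and 1.65 for mt-Tw (SE 0.40, adjusted p = 0.0474). mt-Tl1 and mt-Tt were called in all 12 fits that left out 1 library, and mt-Tw only without double mutant 1. A fit with the replicate number as a block put mt-Tw at adjusted p = 0.0572. Without the 3 libraries rich in small RNAs the log2 fold changes were 1.58, 2.22 and 2.03, with adjusted p = 0.143, 0.124 and 0.206 over the 9 libraries left. Markers of hair shaft and inner root sheath moved with the same contrast: 8 of 10 were called lower, with a median log2 fold change of -2.89. T cell markers were lower in 10 of 10 tested, with 2 called and a median of -1.70, and summed to 40.5 to 54.8 CPM in controls, 17.2 to 32.1 in Llgl cKO, 31.8 to 72.2 in Trp53 het and 22.5 to 37.3 in the double mutant. Of 6 adipocyte markers 2 were tested, and both, Fabp4 and Retn, were called lower, with a median of -3.39. The 6 summed to 2.10 to 29.1, 1.76 to 3.86, 2.79 to 17.4 and 0.335 to 0.854 CPM in the same order, with the defining markers Adipoq, Plin1 and Lep at 0 in most libraries. Fibroblast markers went both ways in this contrast: of 7 tested, 4 were higher, 3 lower and 0 called, with a median of 0.18. They summed to 139 to 526 CPM in controls, 412 to 434 in Llgl cKO, 183 to 533 in Trp53 het and 566 to 639 in the double mutant. Keratinocyte markers also went both ways: of 14 gene rows tested, 5 were higher and 9 lower. Among them 1 was called higher and 1 lower, with a median of -0.08. The part of all these markers, and of cell composition in general, in the transfer RNA levels was not tested. DESeq2 called mt-Nd6 higher (adjusted p = 0.0105) and mt-Rnr1 lower (0.00928) as well, while edgeR over all 12 libraries called neither. edgeR did call mt-Rnr1 lower without Trp53 het 3, the library with Trp53 in the control range (log2 fold change -0.97, adjusted p = 0.0378), and without both control 3 and Trp53 het 3 (-1.04, adjusted p = 0.0134). Over all its alternatives the adjusted p of mt-Rnr1 ran from 0.00928 to 0.450. The values of these 2 genes were singled out after they were seen.

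The Trp53 change by itself gave no call. In Trp53 het against control 0 of the 13 genes passed, where 0% of all genes were called, and DESeq2 called 0. At an unadjusted p below 0.05 there were 0 of the 13, against 63 of all 14582 genes. The smallest p-values were those of mt-Tl1 (log2 fold change 0.67, SE 0.39, adjusted p = 1.00) and mt-Co1 (0.20, SE 0.18, adjusted p = 1.00). In Llgl cKO Trp53 het against Llgl cKO edgeR called 0 of 13, where 0% of all genes were called, and DESeq2 also called 0. The unadjusted p was below 0.05 for 3 of the 13, against 747 of all 14582 genes. Of these 3, mt-Tl1 (log2 fold change 1.11, SE 0.33, adjusted p = 0.695) and mt-Tw (1.30, SE 0.50, adjusted p = 0.876) had the smallest. Averaged over both Llgl states, the Trp53 effect was 0.89 for mt-Tl1 (SE 0.25, adjusted p = 1.00) and 0.24 for mt-Nd4 (SE 0.10, adjusted p = 1.00). There were 0 calls by edgeR, where 0% of all genes were called, and 0 by DESeq2. The unadjusted p was below 0.05 for 2 of the 13, against 316 of all 14582 genes.

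Whether the Llgl effect differed between Trp53 backgrounds was tested directly by the interaction. edgeR and DESeq2 each called 0 of the 13 genes, and edgeR called 0% of all genes. No member had an unadjusted p below 0.05, against 428 of all 14582 genes. The interaction was 1.28 for mt-Tw (SE 0.81, adjusted p = 1.00) and 0.19 for mt-Nd4 (SE 0.20, adjusted p = 1.00). The calls in the double mutant that were missing in Llgl cKO are thus not shown to be a difference between the backgrounds.

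**Figure D5:**
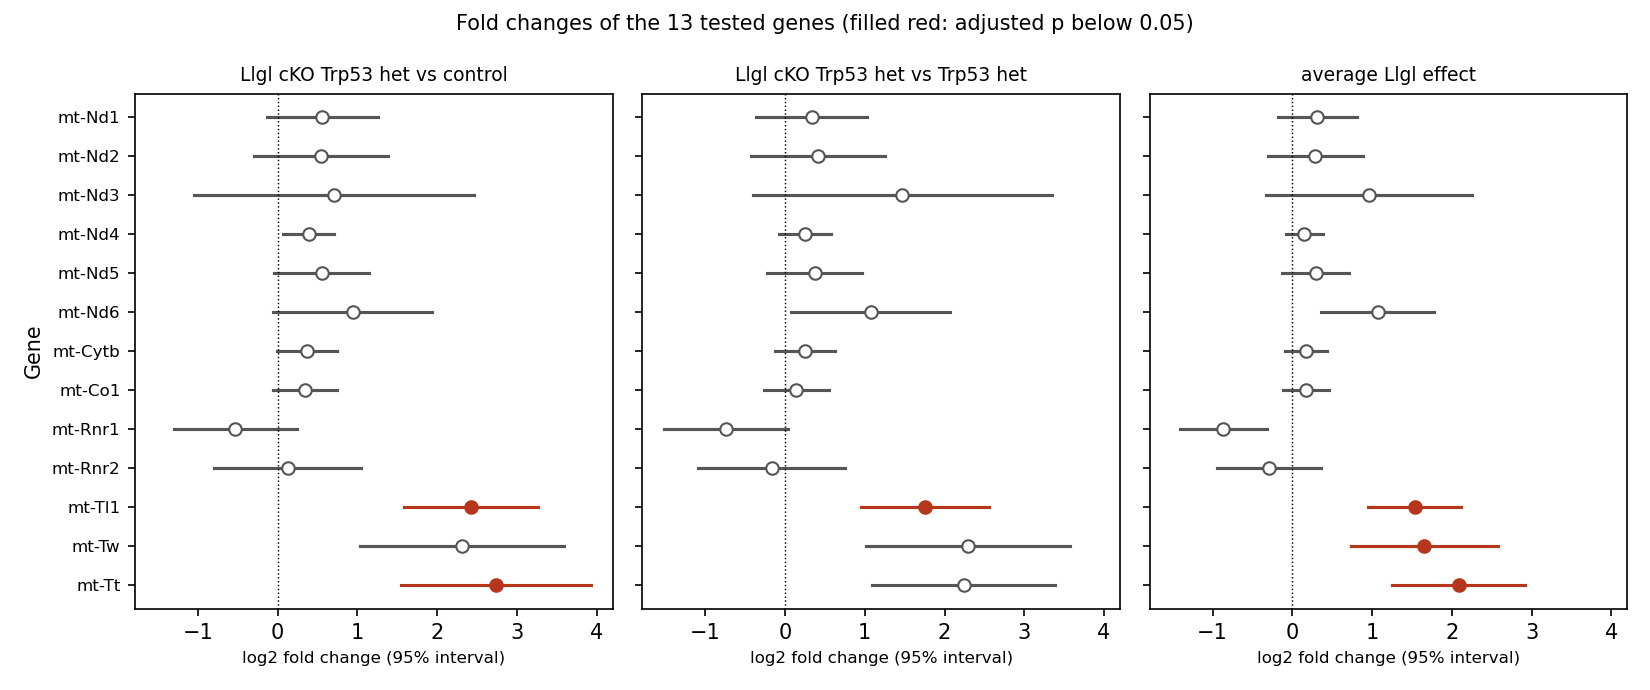
Log2 fold changes of the 13 mitochondrial genes tested, with 95% intervals (8 degrees of freedom), in the comparisons named on the panels, with the called genes marked. The 3 transfer RNA genes lie furthest to the right in Llgl cKO Trp53 het against control (2.32 to 2.74), while the 8 coding genes lie between 0.34 and 0.94.

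The transfer RNA counts were also set against the neighbouring gene of the same precursor, as a description. These ratios reuse the same few counts, and mt-Tt and mt-Tw entered the test mainly through the groups with Llgl loss. The share of all genes that separate was not counted here either. For every 10000 counts of mt-Nd1, mt-Tl1 had 4.29 to 9.0 in controls, 12.7 to 16.2 in Llgl cKO, 6.72 to 14 in Trp53 het and 20.5 to 29.8 in the double mutant. Relative to mt-Cytb, mt-Tt had 0.772 to 3.32, 7.48 to 8.23, 1.80 to 3.92 and 6.84 to 16.0 per 10000 counts in the same order. So mt-Tt stayed separate between libraries with and without Llgl loss on this scale, while 1 Trp53 het library overlapped Llgl cKO in mt-Tl1 relative to mt-Nd1. Relative to mt-Rnr2, its other neighbour, mt-Tl1 had 10.3 to 39.1 in controls, 52.7 to 93.2 in Llgl cKO, 19.3 to 40.9 in Trp53 het and 84.4 to 185 in the double mutant, so the libraries with and without Llgl loss stayed separate there. The ratio of mt-Tw to mt-Nd2 overlapped between groups, with control 1 at 19.6 per 10000, above all Llgl cKO libraries. The 19 transfer RNA genes that were not tested summed to 0.491 to 1.87 CPM in controls, 1.38 to 2.47 in Llgl cKO, 1.05 to 1.45 in Trp53 het and 0.942 to 5.02 in the double mutant, ranges that overlap.

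Nuclear genes that serve the mitochondrion showed small median differences by list, while single genes, such as Lars2 (given below), differed more. In Llgl cKO Trp53 het against control 0 members were called in any of 12 lists: the nuclear subunits of complexes I (36 tested), II (4), III (9) and IV (11) and of ATP synthase (14), mitochondrial DNA replication (10), transcription (10), RNA processing and decay (22), transfer RNA synthetases (17), ribosomal proteins (50), biogenesis regulators (9) and stress response (10). List medians ran from -0.16 for the biogenesis regulators to 0.12 for ATP synthase, against -0.0059 over all genes. Fold changes were positive for 7148 of all 14582 genes. By list they were positive for 26 of 36 complex I, 2 of 4 complex II, 7 of 9 complex III, 9 of 11 complex IV and 13 of 14 ATP synthase genes. The counts were 6 of 10 for replication, 5 of 10 for transcription, 11 of 22 for RNA processing and 10 of 17 for synthetases. They were 36 of 50 for ribosomal proteins, 3 of 9 for biogenesis and 6 of 10 for stress response. In Llgl cKO against control 12 of 36 complex I, 7 of 14 ATP synthase and 14 of 50 ribosomal protein genes were positive. In Llgl cKO Trp53 het against control, genes with small p-values in their lists were Ndufs4 (log2 fold change 0.43, adjusted p = 0.149) of complex I, Atp5g2 (0.49, adjusted p = 0.132) and Atp5e (0.25, adjusted p = 0.300) of ATP synthase, and Mrps30 (0.47, adjusted p = 0.102) and Mrps2 (0.33, adjusted p = 0.259) of the mitochondrial ribosome.

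Genes that make, cut or load mitochondrial RNA were likewise not called in that comparison. The transcription factors Tfb1m and Tfb2m had log2 fold changes of 0.23 (adjusted p = 0.684) and 0.16 (adjusted p = 0.758). Mtpap, the mitochondrial poly(A) polymerase, was at 0.24 (adjusted p = 0.523) and Rexo2, an exonuclease for short RNA, at -0.16 (adjusted p = 0.495). Among the synthetases, Lars2 was at -3.57 (SE 1.02, adjusted p = 0.133) and Mars2, which loads methionine, at -0.45 (adjusted p = 0.254). The Lars2 levels were uneven within groups, at 4012 ± 5608 CPM in controls and 337 ± 150 in the double mutant (SD, n = 3).

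The leading genes of the other lists were not called in that comparison either. For replication the leading genes were Primpol (0.41, adjusted p = 0.505) and Rnaseh1 (0.14, adjusted p = 0.696). For the remaining complexes they were Cox4i1 (0.23, adjusted p = 0.408), Cox5b (0.15, adjusted p = 0.572), Uqcrc1 (0.14, adjusted p = 0.580), Uqcrh (0.14, adjusted p = 0.633), Sdha (-0.12, adjusted p = 0.674) and Sdhd (-0.07, adjusted p = 0.875). For biogenesis and stress response they were Pprc1 (-0.21, adjusted p = 0.466), Nrf1 (-0.18, adjusted p = 0.572), Atf5 (0.40, adjusted p = 0.426) and Hspe1 (-0.21, adjusted p = 0.504).

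Over both Llgl contrasts 2 members of these lists were called, both lower. Ndufa12, a complex I subunit, fell by 0.42 on the log2 scale (SE 0.10, adjusted p = 0.0448), from 28.5 ± 5.07 CPM in controls to 19.99 ± 1.10 in Llgl cKO and 22.0 ± 1.81 in the double mutant. Lars2 fell by 3.31 (SE 0.72, adjusted p = 0.0315). In the list of nuclear RNAs without a poly(A) tail, 12 of 12 tested had a negative fold change, with a median of -0.97, and Rmrp (-3.90, adjusted p = 0.0406) and Rpph1 (-4.55, adjusted p = 0.0474) were called lower. Rmrp, Rpph1 and Lars2 are the genes that were high in control 1, Trp53 het 1 and Trp53 het 2. Whether the Lars2 counts in those libraries measure the synthetase messenger RNA was not tested.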

How the data were processed

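RNA of 12 newborn mouse skin epidermis samples was counted per gene. The deposited table holds raw counts, not normalized. The submitters' processing notes name the build GRCm38 and, as tools, STAR, DESeq2 2.11.40.8 and featureCounts 1.6.4, and total RNA went into stranded mRNA libraries per the labels' protocols. The annotation release, the strand setting and the handling of reads with several matches are not given in the sources used here.

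Counts were tested in R 4.3.3 with edgeR 4.0.16: TMM scaling, filterByExpr (minimum count 10, 14582 genes kept), and 1 robust quasi-likelihood fit of group means over all 12 libraries with 8 residual degrees of freedom. Calls are at an adjusted p below 0.05 (Benjamini-Hochberg, over all genes tested), and every adjusted p is from edgeR unless DESeq2 1.42.0 is named. The p-values measure the spread between mice. Levels are CPM on library sizes scaled by TMM. The biological coefficient of variation of the fit was 23.8%. Intervals take the SE as the fold change divided by the square root of the F statistic. Of the 8 comparisons, 5 were pairwise, 2 averaged effects and 1 the interaction. The fit was tested on simulated data. Gene models and transcript sequences are from GENCODE M21.

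Alternatives were DESeq2, other scalings and filters, a fit of the compared groups only, a replicate block, each library left out, and the libraries control 3 and Trp53 het 3 left out together. Another 3, leaving out the 2 shallowest libraries (control 1 and Trp53 het 2) or the 3 richest in RNAs without a poly(A) tail by either of 2 lists, were chosen after seeing the data. Replicate numbers pair control and Trp53 het by the data alone (correlations of deviations 0.62, 0.21 and 0.82); no other pair of groups had all 3 above 0.1.

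The genes and lists were chosen with earlier results of these data known. Every mitochondrial gene was eligible for naming; fold changes are given for all tested members in Llgl cKO Trp53 het against control, and elsewhere for called members and the 2 with the smallest p. Nuclear lists are represented by the 2 members with the smallest p in that comparison and by called members, and cell type markers by summed levels; 1 gene that this rule names is not reported here.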

Additional observations from a re-analysis of the deposited data

How the results depend on the processing

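Up to 24 alternatives were run for each comparison. Counts of called members moved as follows. In Llgl cKO Trp53 het against control, 2 became 0 in the fit of the compared groups only, without the 2 shallowest libraries, without the 3 libraries richest in RNAs that lack a poly(A) tail and without the 3 richest in small nuclear-encoded RNAs, and 0 to 3 on leaving out 1 library; DESeq2 gave 3. Against Trp53 het, 1 became 3 with DESeq2, 2 without a filter on low counts, 0 in the fit of the compared groups only and 0 in each of the 3 alternatives chosen after seeing the data, and 0 to 3 on leaving out 1 library. In the average Llgl effect, 3 became 5 with DESeq2, 0 in each of those 3 alternatives, and 2 to 3 on leaving out 1 library. Without Trp53 het 3, alone or with control 3, mt-Rnr1 took the place of mt-Tw. The second poly(A) list was set up after the result of the first, whose summed level Hist1h1c dominates. These last fits hold 9 or 10 libraries. All other counts stayed at 0, and the share of counts per group moved by less than 1 SD. The 3 transfer RNA fold changes stayed positive in each comparison and alternative where they are named. Only mt-Rnr2 in Llgl cKO Trp53 het against control reversed, to -0.0076 without control 2 and -0.29 without Llgl cKO Trp53 het 3 (0.48 without Llgl cKO Trp53 het 1 is the highest). The replicate block gave counts of 2, 1 and 2 in the same order, mt-Tw in the average Llgl effect being lost (1.64, adjusted p = 0.0572), and no other named call changed. Over all genes, leaving out 1 library gave 25 to 351, 24 to 322 and 164 to 697 calls against 182, 198 and 485, DESeq2 644, 722 and 1034, and the block 347, 376 and 664. The fit of compared groups only equals the full fit for the averages and interaction. Depth limits the transfer RNAs: the 3 named had 1 to 17 counts in a control library.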
